A study of Homo sapiens with 4 samples.

Results

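Messenger RNA of 9 B-cell surface antigens was followed in 2 established human mantle cell lymphoma (MCL) lines, REC-1 and Z138: CD52, CD37, MS4A1, CD38, CD24, CD27, CD5, CD69 and CD83. The genes were taken by symbol, and every probe set that the array's annotation assigned to one of them was used, 18 in all and none shared with another symbol. They are 9 of the 18239 genes with a probe set of their own. MCL is a B-cell malignancy driven by cyclin D1. For each line there was a control array and an array of cells given CC-292, a covalent inhibitor of Bruton tyrosine kinase (BTK), so the 4 groups were REC-1 control, REC-1 with CC-292, Z138 control and Z138 with CC-292, with 1 array each and no replicates. The exposure was 48 h in the labels, a time that is missing from the Z138 control's own title. The dose is 1 uM in the treatment protocol but 1 mM in the treated samples' titles. Each line is a single established culture, and no vehicle, genotype or mutation is stated for it.

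These antigens mark stages of B-cell life, and antibodies reach lymphoma cells through several of them. CD52 is a small GPI-anchored glycoprotein bound by alemtuzumab. CD37 is a tetraspanin of mature B cells. MS4A1 encodes CD20, the membrane protein bound by rituximab. CD38 is an NAD-consuming ectoenzyme bound by daratumumab, and CD24 is a GPI-anchored mucin-like protein. CD27 is a receptor of the TNF receptor family carried by memory B cells. CD5 is a scavenger-receptor family protein of T cells that MCL cells usually carry. CD69 and CD83 appear early on stimulated lymphocytes, and both are induced by antigen receptor signals, which in B cells run through BTK. The arrays measured RNA in whole cultures and not protein on the surface, and fewer cells that express a gene cannot be told apart from less RNA per cell.

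Promoter sequence is shown for CD52, the antigen with the largest CC-292 difference, and for CD83, the activation antigen. Each window holds the 250 bases before a RefSeq start site on GRCh38.p14, read on the plus strand. CD52 lies at chr1:26317708-26317957 and CD83 at chr6:14117522-14117771, the latter being 1 of 2 start sites listed for the gene. Capitals in CD52 mark GAGGAA on either strand, the extended core bound by PU.1 and Spi-B, transcription factors of B cells. Capitals in CD83 mark matches to the NF-kB consensus on either strand.
CD52: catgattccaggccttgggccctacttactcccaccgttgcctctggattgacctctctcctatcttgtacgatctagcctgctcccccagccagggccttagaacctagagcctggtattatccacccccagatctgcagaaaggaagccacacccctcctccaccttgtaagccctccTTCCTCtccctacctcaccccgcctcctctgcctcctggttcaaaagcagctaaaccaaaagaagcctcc
CD83: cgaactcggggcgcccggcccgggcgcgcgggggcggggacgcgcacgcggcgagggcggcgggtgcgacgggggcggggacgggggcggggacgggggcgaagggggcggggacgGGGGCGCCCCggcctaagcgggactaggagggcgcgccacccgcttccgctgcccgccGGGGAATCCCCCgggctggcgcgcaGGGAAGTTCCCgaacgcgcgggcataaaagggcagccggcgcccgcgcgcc
The CD52 window held GAGGAA 1 time, from 70 bases before the start. GAGGAA was present in 23.6% of the 35116 promoter windows of this length. The window held no NF-kB consensus, octamer ATTTGCAT, AP-1 site TGANTCA or E-box CANNTG on either strand. Shares of all windows with these were 9.96%, 1.63%, 6.57% and 61.8%. In the CD83 window the NF-kB consensus matched at 6 positions, some of them overlapping, which form the 3 capital runs from 134, 76 and 51 bases before the start. The other CD83 window, at chr6:14117006-14117255, held none. The CD83 window with matches is 83.2% G or C. Matches were not particular to CD83. The overlapping CD24 windows at chr6:106975628-106975877 and chr6:106975466-106975715 each held the consensus at 2 positions. A match describes letters and not a bound site. RefSeq windows were matched for 5 of the 9 genes, CD52, CD38, CD83, CD24 and CD27, and CD37, MS4A1, CD5 and CD69 are named only.

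Values are log2 signals, so that a difference of 1 is 2-fold. Each gene is represented by the brightest of its probe sets. Where several reached the minimum below, their SD describes how far they differ among themselves, not any error between cultures. Genes were kept if at least 1 array gave them log2 4.63 or more, the median over the whole table. Of the 9 antigen genes 7 were kept, and all 7 reached this minimum on the control array of both lines. Levels of different genes are not compared, because probe sets differ in brightness for the same amount of RNA.

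CD27 and CD5 did not reach the minimum on any array. CD27 read 4.04 on the REC-1 control, 4.09 on REC-1 with CC-292, 4.20 on the Z138 control and 3.64 on Z138 with CC-292. The brighter CD5 probe set read 4.04, 3.47, 3.96 and 3.75 in the same order, and the other one 3.55, 2.84, 2.91 and 3.10. These values lie among those of the 23 nonspecific control probe sets of the array, of which 3 to 5 were at or above CD27 and 4 to 7 at or above the brighter CD5 probe set on each array. RNA of CD5 and CD27 was therefore not clearly above background in these MCL lines, and no difference is drawn from either gene.

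**Figure D1:**
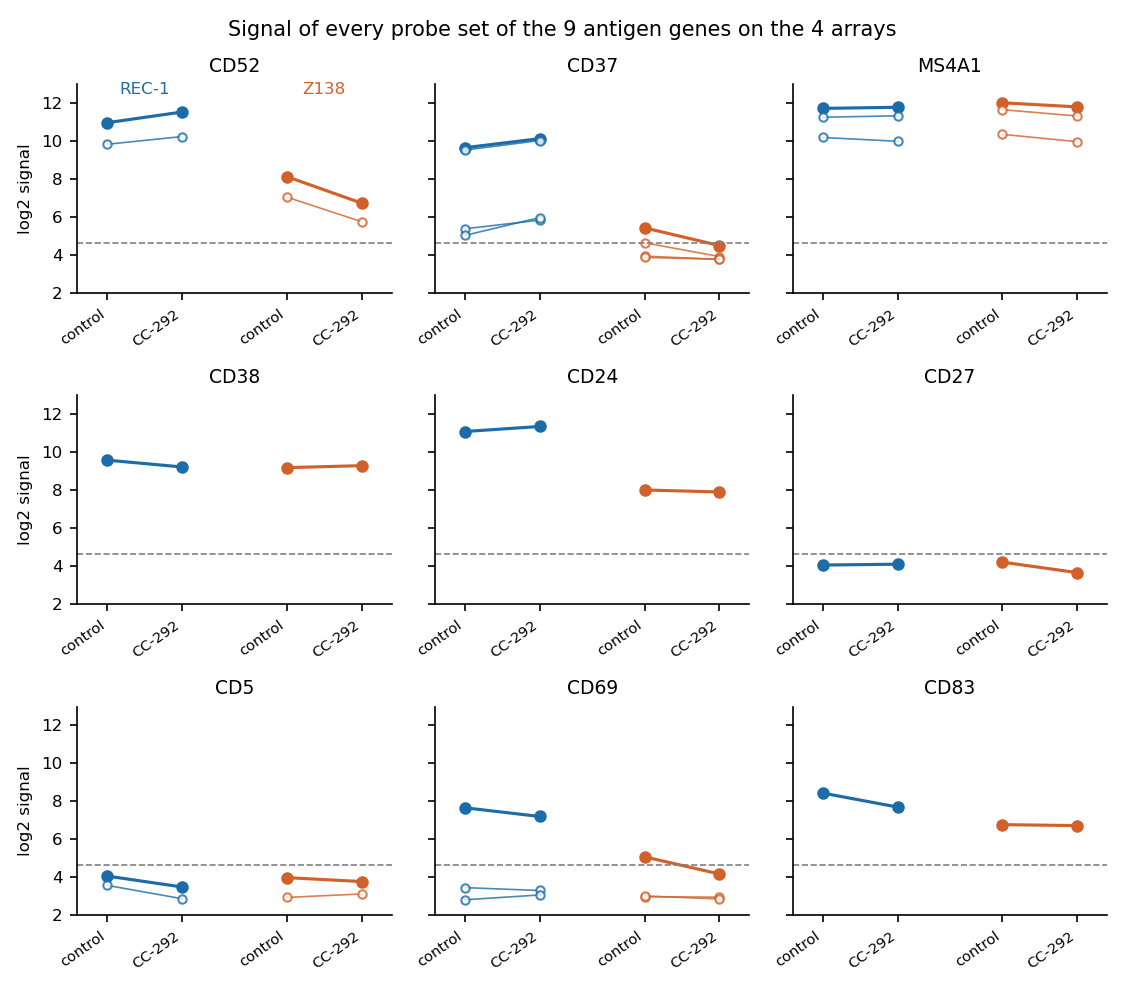
Log2 signal (vertical axis) of all 18 probe sets of the 9 antigen genes on the 4 arrays, with REC-1 in blue and Z138 in orange. Filled points are the probe set that represents the gene, open points the others, lines join the arrays of a line, and the dashed line is the minimum of 4.63. CD52, CD37 and CD24 sit high in REC-1 and lower in Z138, MS4A1 and CD38 are level across arrays, and CD27 and CD5 stay below the dashed line.

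The antigen genes fell into those shared by the lines and those higher in REC-1. On the control arrays 5 of the 7 kept genes were at least 2-fold higher in REC-1 than in Z138, CD37, CD24, CD52, CD69 and CD83, and none was at least 2-fold lower. Among all 10823 genes kept, 11.9% were at least 2-fold higher in REC-1. The median difference of the 7 genes was 2.59, against 0.02 for all genes. For these 5 genes both REC-1 arrays lay above both Z138 arrays.

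CD37 had the widest gap. It read 9.66 on the REC-1 control, 10.14 on REC-1 with CC-292, 5.43 on the Z138 control and 4.49 on Z138 with CC-292. The REC-1 control was 18.8-fold above the Z138 control, a difference of 4.23 that 90 of the 10823 genes reached (counts of this kind include the gene itself). The gap depended on the probe set: a second bright one gave 4.90, and 2 dimmer ones gave 1.44 and 1.16 (SD 1.91 over 4 probe sets). All 4 had REC-1 higher. The dimmer pair and the Z138 CC-292 value of CD37 lie close to the minimum, where differences on this scale are compressed.

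CD24 read 11.10 and 11.36 in REC-1 and 8.01 and 7.90 in Z138, control before CC-292, which puts the REC-1 control 8.51-fold higher. It rests on 1 probe set of a class whose probes can match several transcripts, and CD24 has near-identical copies elsewhere in the genome, so its level is uncertain. The brightest probe set of CD52 and the only bright one of CD69 are of the same class. CD52 read 10.98 and 11.55 in REC-1 and 8.14 and 6.73 in Z138, 7.19-fold higher on the REC-1 control. Its second probe set gave 9.84, 10.25, 7.05 and 5.75, and the control differences of the pair, 2.85 and 2.79, agreed closely (SD 0.04).

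The activation antigens were also higher in REC-1. CD69 read 7.65 and 7.19 in REC-1 and 5.06 and 4.15 in Z138, 6.03-fold higher on the control. Only this probe set of CD69 reached the minimum: its 2 others stayed at or below 3.43 on every array, and the mean over all 3 lowers the control difference from 2.59 to 0.96. CD83 read 8.43 and 7.69 in REC-1 and 6.76 and 6.71 in Z138, 3.17-fold higher on the control, from 1 probe set.

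MS4A1 and CD38 were at like levels in both lines. MS4A1 read 11.74, 11.80, 12.03 and 11.82 on the 4 arrays, at percentiles of 99.15 to 99.34 among the probe sets of each array, and REC-1 minus Z138 was −0.30 on the controls (SD 0.12 over 3 probe sets). CD38, with 1 probe set, read 9.58, 9.22, 9.19 and 9.29, and its control difference was 0.40. The ranges of the lines overlapped for CD38. For MS4A1 they lay next to each other, with the CC-292 arrays of the lines 0.02 apart.

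On the CC-292 arrays the gaps of CD37, CD52, CD24 and CD69 were wider in measured signal. REC-1 exceeded Z138 by 28.2-fold for CD52 and 11.0-fold for CD24. CD37 and CD69 were below the minimum on the Z138 array with CC-292. Set against the minimum itself, the brightest probe sets had REC-1 at least 45.5-fold higher for CD37 and at least 5.88-fold higher for CD69. Other probe sets of CD37 gave log2 differences of 6.13, 2.08 and 2.20, with a mean of 4.01 over all 4 (SD 2.17). CD37, CD52, CD24 and CD69 were at least 2-fold higher, as were 12.0% of all genes. For CD69 the log2 difference of 3.04 became 1.20 as the mean of its 3 probe sets and 0.35 for the one with the median difference, which is under 2-fold. CD83 came just short of 2-fold, at 0.98 on the log2 scale.

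The average line difference over control and CC-292 arrays was tested with limma across all 10823 genes, in an additive fit of line and treatment. The p-values are adjusted by Benjamini-Hochberg over all genes. Of the 7 kept antigen genes 5 were called higher in REC-1 at adjusted p under 0.05 and 0 lower. Over all genes 44.7% were called, 21.7% as higher in REC-1. The log2 difference was 4.94 for CD37 (SE 0.34, adjusted p = 0.000324, limma), 3.83 for CD52 (SE 0.45, adjusted p = 0.00185), 3.28 for CD24 (SE 0.17, adjusted p = 0.000141), 2.81 for CD69 (SE 0.18, adjusted p = 0.000266) and 1.32 for CD83 (SE 0.21, adjusted p = 0.00531). With the mean of its probe sets the CD69 line difference fell to 1.08. MS4A1 differed by −0.16 (SE 0.17, adjusted p = 0.480, limma) and CD38 by 0.16 (SE 0.18, adjusted p = 0.514, limma), neither called. The fit treats the control and CC-292 arrays of a line as its 2 samples and has 1 residual degree of freedom. A gene's own spread is therefore how unequally the lines responded to CC-292, and limma moderates it with the spread of all genes. Neither part measures spread between separate cultures.

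**Figure D2:**
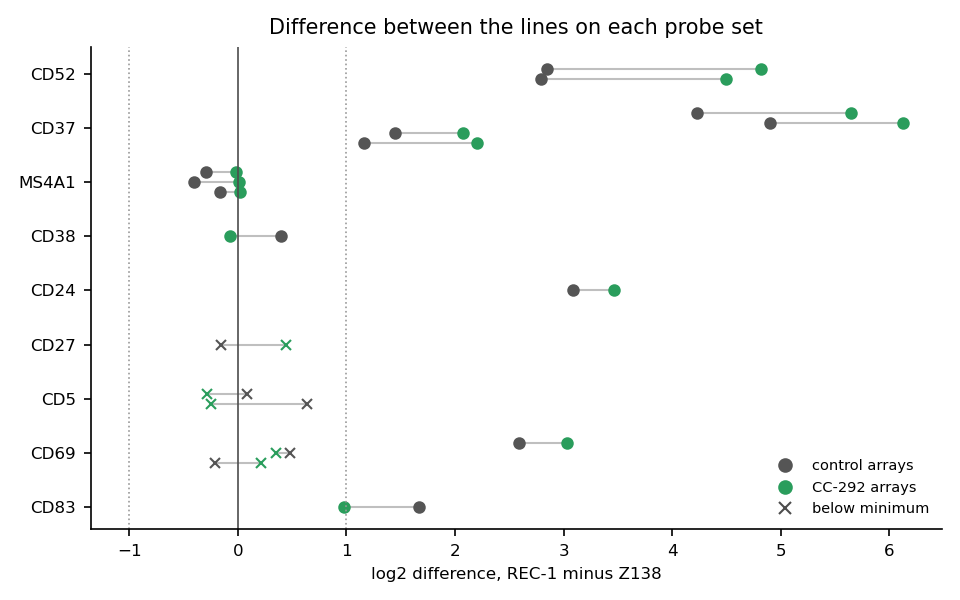
Log2 difference REC-1 minus Z138 (horizontal axis) for each probe set of the 9 antigen genes, on control arrays in grey and CC-292 arrays in green, with crosses for probe sets below the minimum and dotted lines at 2-fold. CD37, CD24 and CD52 lie to the right, and the green points of CD52 and CD37 lie beyond the grey ones, from 2.85 to 4.82 and from 4.23 to 5.65 for their brightest probe sets.

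In REC-1 cells CC-292 was accompanied by small differences in both directions. None of the 7 kept antigen genes differed at least 2-fold, as 1.60% of all genes did, and 1 differed at least 1.5-fold, CD83, against 9.05% of all genes. The median of the 7 was 0.06 and that of all genes −0.05. CD83 was 0.74 lower with CC-292, 1.67-fold, and 263 of the 10823 genes were at least as low. CD69 was 0.46 lower and CD38 0.36 lower. The activation antigens were thus the lowest of the 7, though CD69 did not reach 1.5-fold and the mean over its probe sets was −0.12.

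CD52 and CD37 were the highest in REC-1. CD52 was 0.56 higher with CC-292, 1.48-fold, with 0.41 on its second probe set (SD 0.11). CD37 was 0.48 higher, with 0.51, 0.46 and 0.94 on its others (SD 0.23 over 4). All 6 probe sets of these genes were higher on the CC-292 array, but 505 genes were at least as high as CD52 and 696 as high as CD37. CD24 was 0.27 higher and MS4A1 0.06 higher, the latter with −0.20 on its dimmest probe set.

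In Z138 cells the differences were mostly downward. On the brightest probe sets those of CD52, CD37, CD69 and MS4A1 were larger than in REC-1. For CD37 this did not hold over its 4 probe sets, with means of −0.48 in Z138 and 0.60 in REC-1. CD52 was the only kept antigen gene that differed at least 2-fold, as 0.564% of all genes did. CD52, CD37 and CD69 were at least 1.5-fold lower with CC-292, as were 2.52% of all genes. Of the 7 genes 6 were below 0, against 48.1% of all genes, with a median of −0.22 against 0.01. Over the 13 probe sets of these genes that reached the minimum, 12 were lower in Z138, whereas in REC-1 4 were lower and 9 higher. These are not separate genes, since CD37 supplies 4 of the 13 and MS4A1 3. The dimmer CD37 pair reached the minimum only in REC-1, so its Z138 signs lie within background. No share over all probe sets was computed for comparison.

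CD52 was 1.40 lower in Z138 with CC-292, 2.65-fold, and its second probe set was 1.30 lower (SD 0.07). No more than 4 of the 10823 genes were as low. CD37 was 0.93 lower, 1.91-fold, with −0.73 on the second bright probe set and −0.17 and −0.09 on the dimmer pair, whose Z138 values all lay below the minimum. The mean over its 4 probe sets was −0.48. CD69 was 0.90 lower, 1.87-fold, on its 1 bright probe set and −0.36 as the mean of all 3. For CD37 and CD69 the Z138 value with CC-292, 4.49 and 4.15, was itself below the minimum, so that the size of the difference is limited by background. Set against the minimum, CD37 was at least 1.73-fold lower and CD69 at least 1.34-fold lower, on the brightest probe sets only.

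The other antigens moved less in Z138. MS4A1 was 0.22 lower, with −0.33 and −0.39 on its other probe sets (SD 0.09), CD24 was 0.10 lower, CD83 was 0.05 lower and CD38 was 0.11 higher. CD20 and CD38 transcripts, the targets of rituximab and daratumumab, thus differed by at most 1.28-fold with CC-292 in either line on the brightest probe sets.

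**Figure D3:**
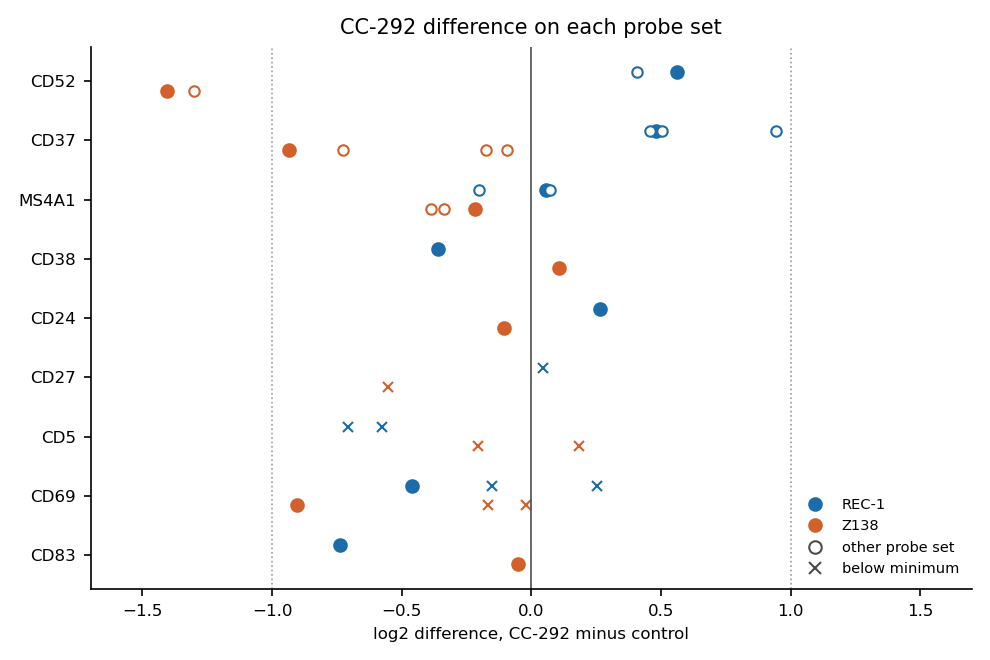
Log2 difference, CC-292 minus control (horizontal axis), on each probe set of the 9 antigen genes, REC-1 in blue and Z138 in orange. Filled points represent the gene, open points are other probe sets, crosses are probe sets below the minimum and dotted lines mark 2-fold. Both CD52 probe sets lie beyond −1 in Z138, at −1.40 and −1.30, and above 0 in REC-1, and CD83 lies at −0.74 in REC-1 and −0.05 in Z138.

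CD52 and CD37 lay above 0 in REC-1 and below 0 in Z138. The REC-1 difference minus the Z138 difference was 1.97 for CD52, with 1.71 on its second probe set (SD 0.18). It was 1.42 for CD37, with 1.23, 0.63 and 1.04 on its others (SD 0.34). These were the 2 antigen genes of 7 at or above 1 on this measure, which 2.07% of all genes reached. No more than 7 genes were at least as high as CD52, and 55 as high as CD37. CD24 and MS4A1 had the same signs with gaps of 0.37 and 0.28. CD83 went the other way, at −0.69, with 634 genes at least as low. With 1 array per group the difference between the lines' responses has no test.

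**Figure D4:**
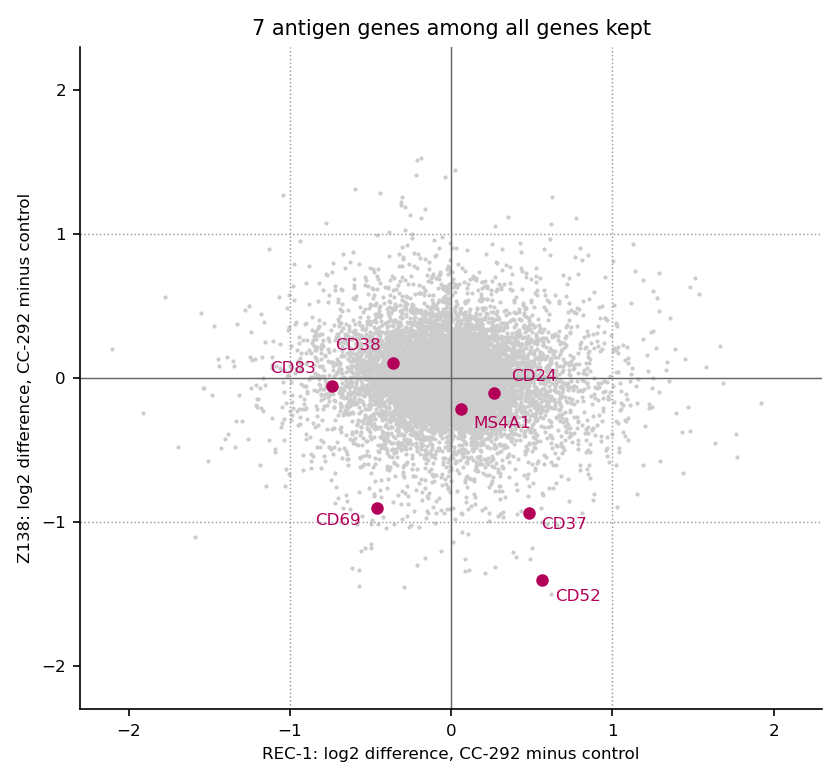
CC-292 minus control on the log2 scale in REC-1 (horizontal axis) and Z138 (vertical axis) for the 10823 genes kept (grey), with the 7 antigen genes in red and dotted lines at 2-fold. CD52 lies at 0.56 and −1.40 and CD37 at 0.48 and −0.93, to the lower right, while CD69 lies at −0.46 and −0.90, below 0 in both lines.

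Averaged over both lines, no antigen gene was called. The limma fit with line as a block called 0 of the 10823 genes (0.00%) for CC-292, and 472 had an unadjusted p under 0.05. CD69 was lower by 0.68 on average (SE 0.18, unadjusted p = 0.0112, adjusted p = 1.00, limma), in both lines. With the mean of its probe sets the CD69 average was −0.24, and its brightest probe set was below the minimum on the Z138 CC-292 array. CD52 averaged −0.42 (SE 0.45) and CD37 −0.23 (SE 0.34), the antigen genes with the largest SEs, since their lines moved apart. Their adjusted p was also 1.00 in limma.

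Other surface antigens that antibodies or cell therapies target were also mostly below 0 in Z138. Of 24 with a probe set 21 were kept. On the brightest probe sets 20 of these were below 0 in Z138 with CC-292, against 48.1% of all genes. Their median was −0.20 against 0.01. As means of probe sets, CD79B (0.11), ROR1 (0.09) and CD74 (0.01) were above 0 in Z138. In REC-1 9 of the 21 were below 0, against 57.8% of all genes, with a median of 0.01 against −0.05. The lowest in Z138 were CD22, an inhibitory lectin of B cells, at −1.08 (−0.72 as the mean of its probe sets), CXCR5, the follicle-homing receptor, at −0.91 with values below the minimum on both Z138 arrays, CD40, a receptor for T-cell help, at −0.75 and CD80, a costimulatory ligand, at −0.63. The only one above 0 was CR2, the complement receptor CD21, at 0.34, also below the minimum on both Z138 arrays. That held for 3 of the 21 genes in Z138, CR2, CXCR5 and TNFRSF13C, and in REC-1 for CD80. In REC-1 the lowest were TNFRSF17, the plasma-cell antigen BCMA, at −0.81, CD40 at −0.71, CD80 at −0.40 and FCER2, the IgE receptor CD23, at −0.39, of which TNFRSF17, CD80 and FCER2 were below the minimum on the CC-292 array. CD40, well above the minimum on all arrays, was thus low in both lines, and CD22 was low in Z138 with 0.10 in REC-1. The average line difference called 13 of the 21 higher in REC-1 and 6 lower (limma, adjusted p under 0.05), against 21.7% and 23.1% of all genes. On the control arrays, set against the minimum, the brightest probe set of CXCR5 was at least 62.5-fold and that of CR2 at least 32.4-fold higher in REC-1. As the mean of 2 probe sets the measured log2 difference was 4.63 for CXCR5 (SD 2.55) and 5.75 for CR2 (SD 0.73). On the same arrays TNFRSF17 was 5.64 and CXCR4, a chemokine receptor, 3.10 lower in REC-1 on the log2 scale.

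Among the relatives of CD37, the tetraspanins, 15 of 15 were kept. In Z138 with CC-292 8 were below 0, against 48.1% of all genes, with a median of −0.04. CD82 was 0.48 in REC-1 and −0.75 in Z138. CD9 was 0.84 in REC-1 and −0.38 in Z138, and TSPAN4 was −0.91 in REC-1 (−0.31 as the mean of its probe sets, SD 0.57). CD82 was below the minimum on the Z138 array with CC-292, and 5 of the 15 genes were below it on both Z138 arrays. CD53, a tetraspanin of leukocytes, was 0.13 in REC-1 and −0.24 in Z138. The limma line average called 5 higher in REC-1 and 4 lower, against 21.7% and 23.1% of all genes.

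CD52 and CD24 need a GPI anchor to reach the surface, and RNA for the enzymes that make and attach it showed no common direction. All 25 such genes were kept, with 13 above 0 in Z138, against 51.9% of all genes, and 15 in REC-1, against 42.1%. The medians were 0.01 and 0.10 in the same order. None reached 1.5-fold in Z138, as 4.70% of all genes did. In REC-1 the largest differences on the brightest probe sets were PIGQ at 0.84, PIGK at 0.64, PGAP3 at −0.63 and PIGN at 0.55. As means of the probe sets that reached the minimum they were 0.33, 0.02, −0.36 and 0.15 in the same order.

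Of 13 ligands, partners and relatives of the antigens with a probe set, 8 were kept, with medians of 0.02 in REC-1 and 0.01 in Z138. CD70, the ligand of CD27, also counted above, read 10.18, 10.22, 9.71 and 9.69 on the 4 arrays, and differed with CC-292 by 0.04 in REC-1 and −0.02 in Z138. PECAM1, a ligand of CD38, was 0.72 higher in REC-1 and 0.66 higher in Z138. S1PR1, the receptor that CD69 removes from the surface, was 0.00 in REC-1 and −0.48 in Z138. TRAF5, an adaptor of CD27, was 0.85 in REC-1 and below the minimum on both Z138 arrays. MS4A7, a relative of MS4A1, was −0.94 in Z138, where it passed below the minimum, and below it on both REC-1 arrays. Of the complement regulators, which limit killing by antibodies, 4 of 6 were kept. On the brightest probe sets CD46, CD55 and CD59 lay between −0.25 and 0.02 in both lines. As the mean of its bright probe sets CD59 was 0.22 in REC-1 and 0.17 in Z138. CR1 was 0.59 in REC-1 and −1.01 in Z138, where it was below the minimum. Its 2 probe sets had opposite signs in each line, with means of 0.29 in REC-1 and −0.36 in Z138.

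Transcription factors of B cells were all kept, 21 of 21. In Z138 16 lay below 0, against 48.1% of all genes (median −0.14 against 0.01). In REC-1 12 lay below 0, near the share of all genes, 57.8% (median −0.06 against −0.05). SPIB, which encodes Spi-B, was −0.90 in Z138 and 0.01 in REC-1. PRDM1, the plasma-cell factor, was 0.70 in Z138 and −0.36 in REC-1. In REC-1 RELB, an NF-kB subunit, was −0.92, IRF4 was −0.70 and EBF1 was 0.48. As means of their probe sets IRF4 was −0.56 and EBF1 0.14.

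**Figure D5:**
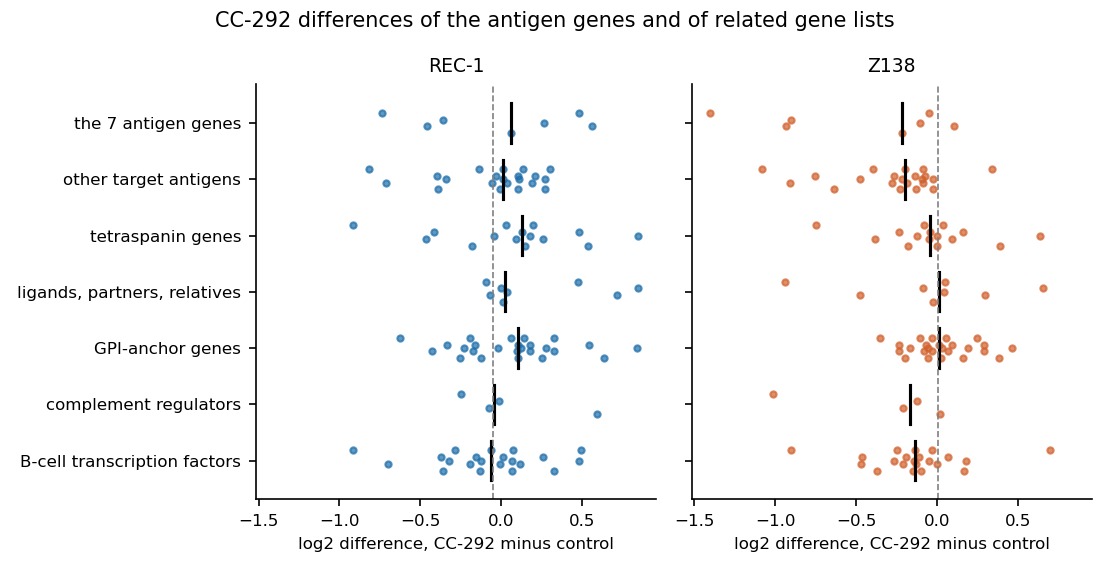
CC-292 minus control on the log2 scale (horizontal axis) for the 7 kept antigen genes and the kept genes of 6 related lists, in REC-1 (left) and Z138 (right). Points are genes, black bars list medians and the dashed line the median of all genes. In Z138 the antigen genes and the other target antigens have medians of −0.22 and −0.20, and GPI-anchor genes 0.01.

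The 5 genes whose 3 differences (CC-292 in each line, and the lines' controls) were nearest to CD52 were AFF3, PRICKLE1, TLR10, TESPA1 and CR1, at Euclidean distances of 0.28, 0.56, 0.64, 0.71 and 0.73. AFF3 was 0.38 higher in REC-1 and 1.21 lower in Z138 with CC-292, and 2.75 higher in the REC-1 control than in the Z138 control. Nearest to CD37 were GSAP, CD1D, SH3BP4, DYNLT3 and KLRK1, at distances of 0.35 to 0.63. All of these 5 were below the minimum on both Z138 arrays, as was CR1, so that their Z138 and line differences are limited by background. These likenesses rest on the same 4 arrays and on the brightest probe set of each gene. For CR1 the 2 probe sets had opposite signs with CC-292 in each line.

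The B-cell label held on all arrays. Of the B-cell markers 7 of 8 had a probe set and all 7 were kept, and their summed linear signal was 8763 on the REC-1 control, 9810 on REC-1 with CC-292, 4271 on the Z138 control and 3508 on Z138 with CC-292. On the brightest probe sets all 7 were below 0 in Z138 with CC-292 (median −0.30), against 48.1% of all genes. CD79A, CD79B and CD22 were also counted above among the other target antigens, and PAX5 among the transcription factors. In REC-1 6 of 7 were above 0 (median 0.10), against 42.1%. As means of probe sets CD79B was 0.11 in Z138, and BLK was −0.05 and CD22 0.01 in REC-1. By their brightest probe sets these markers, CD22 among them, thus mostly lay on the same side of 0 as CD52 and CD37 in each line. The markers' part in the CD52 and CD37 differences was not tested. On the brightest probe sets CCND1 lay between 11.83 and 11.95, and SOX11, an MCL marker, between 8.43 and 9.29. Over the 4 probe sets of CCND1, REC-1 minus Z138 averaged −2.63 on the control arrays (SD 1.92) and −3.08 on the CC-292 arrays (SD 2.23). T-cell markers reached the minimum for 4 of 8 genes, with CD3G highest at 6.07 and summed signals of 130.8 to 172.0, NK markers for 1 of 5, myeloid markers for 0 of 6 and erythroid markers for 1 of 2. ACTB probe sets at the 3′ end exceeded those at the 5′ end, a measure of RNA integrity, by 0.77 and 0.53 in REC-1 and by 1.12 and 1.11 in Z138, so it moved with the line and its part in the line differences was not tested. For GAPDH the 3′ minus 5′ values were −0.32 and −0.31 in REC-1 and −0.28 and −0.24 in Z138. Hybridization controls, added in equal amounts, differed between lines by a median of 0.33 on the control arrays and within lines by at most 0.09.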

How the data were processed

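The authors deposited log2 probe-set signals of 4 arrays, made with RMA and Affymetrix Expression Console 1.1 per the submitters' processing notes. The log2 scale was read from the values, 2.18 to 14.26, and the sources used here give neither a genome build nor the RMA settings. RMA usually equalizes array distributions, so a shift of most genes would not show. Per the labels' protocols, biotin cRNA was made from 150 ng of Trizol RNA.

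Of 49386 probe sets 93 were array controls, 6 with a symbol and 87 without, and were left out of genes. Outside the controls 45253 had 1 symbol in the platform annotation and 1327 several. In all 2800 had none, the 87 controls included. Probe sets with 1 symbol gave 18239 genes, each by its brightest probe set, of which 10823 were kept. Symbols were checked through Entrez identifiers against RefSeq GRCh38.p14, where 45172 probe sets matched. Arrays were assigned by title. Single-array differences have no test. The averages came from limma 3.58.1 (R 4.3.3; lmFit, eBayes, Benjamini-Hochberg), which was checked on simulated data. Other steps used Python 3.11.15, pandas 2.3.3, numpy 2.4.6 and matplotlib 3.10.9.

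The members and lists were chosen with earlier results of these data known. All 9 members are named, with up to 4 genes of largest difference per list and comparison, of which a part is given, and the 5 genes nearest to CD52 and to CD37. CD53, CD70 and S1PR1 are named for their role where they fall outside it. Alternatives were other brightness minimums, scalings, probe-set summaries and folds, limma with an intensity trend, without the block, and over all probe sets. The number of arrays limits the precision.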

Additional observations from a re-analysis of the deposited data

Results flagged for a closer look

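The CC-292 difference of CD52 went opposite ways in the lines, with every probe set higher in REC-1 and lower in Z138, and the REC-1 minus Z138 difference of differences was 1.97. CD37 did likewise on all 4 of its probe sets, at 1.42 for the brightest. Neither difference was tested, since each group is 1 array. The Z138 CC-292 value of CD37 was below the minimum on all 4 probe sets, and the dimmer pair was below it on both Z138 arrays. Opposite signs with a gap of at least 1 in this direction occurred in 209 of the 10823 genes (1.93%), and in the other direction in 204.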

How the results depend on the processing

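With 1 array per group the precision is limited by the number of arrays, and probe sets near the minimum, among them CD37 and CD69 in Z138, are limited by signal over background. The labels carry no replicate numbers to pair arrays by, so the limma fit pairs them by line alone, and leaving out an array would leave no residual degree of freedom. No called difference changed sign, but other summaries of the probe sets ended calls. CD69 lost 2-fold on the control arrays with the mean of its probe sets (0.96) and with the median difference (0.48), and on the CC-292 arrays with the latter (0.35). CD37 and CD69 in Z138 lost 1.5-fold with the mean (−0.48 and −0.36) and the median difference (−0.45 and −0.17). At 1.5-fold, 1 antigen gene differed in REC-1 in place of 0 and 3 in Z138 in place of 1. At 3-fold, 0 differed in Z138, and 1, CD52, in the difference of differences in place of 2. Counts of antigen genes under the other alternatives stayed within 1.5 times. The limma line average called CD24, CD37, CD52, CD69 and CD83 under all 9 alternatives, and CD38 and MS4A1 under 0 of 9. CD52 in Z138 ranged from −1.43 to −1.35 and in REC-1 from 0.49 to 0.62. CD37 in Z138 ranged from −0.96 to −0.45, and its average CC-292 effect from −0.23 to 0.06. Over all genes, the 173 at least 2-fold different in REC-1 and 61 in Z138 became 980 and 509 at 1.5-fold, and 11 and 0 at 3-fold. Genes with unadjusted p under 0.05 for CC-292 numbered 881 with no minimum, 233 with the stricter one, 13 without the block and 1097 over all probe sets. The stricter minimum moved the share of higher among 2-fold genes from 52.6% to 63.8% in REC-1 and from 37.7% to 15.8% in Z138.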
